A study of Mus musculus with 12 samples.

Results

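Nearly all of the genes described here encode subunits of the mitochondrial respiratory chain and of ATP synthase. All were followed in mouse embryonic stem cells (mESC) after knockdown of Srrm2. Members were chosen by gene symbol alone, with no measured value in the rule, though earlier results of these data were known. The rule took protein-coding genes named Nduf (a, b, c, s or v with a number), Sdha to Sdhd, Uqcr, Atp5, mt-Nd, mt-Co, mt-Cytb and mt-Atp. Of the 42450 genes in the count table, 79 met the rule, 66 of them nuclear and 13 on the mitochondrial chromosome (mt members), and all 79 passed the filter on low counts. The nuclear members comprised 35 genes of complex I, 4 of complex II, 8 of complex III, 17 of ATP synthase, and the paralogues Ndufa4 and Ndufa4l2, counted here with complex IV. Among the 17 is Atp5s, whose role is that of coupling factor B. The nuclear Cox genes were outside the rule, so that complex IV was otherwise represented by mt-Co1, mt-Co2 and mt-Co3. CPM are estimated counts scaled to a common library size with TMM factors, in the usual unit of RNA-seq tables. A gene is spoken of as called where the quasi-likelihood test of edgeR, adjusted by Benjamini-Hochberg over all 19410 genes tested, gave a p below 0.05.

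PolyA+ RNA was sequenced from wild-type E14tg2a.4, a male mESC line. It was grown on gelatin with LIF and moved to serum-free ESGRO medium with LIF before collection. The paper describes this medium for its mESC cultures in general, and does not give the hours in it for the siRNA cells. Cells received 50 nM of siRNA, which targeted either Srrm2 (Srrm2-KD) or Gl2, a luciferase of the firefly that mouse cells do not have (Gl2-KD), and the cells of 72 h were transfected again with the same duplexes. Every group (Gl2-KD or Srrm2-KD, at 24 h or 72 h) had 3 libraries, 1 from each of 3 independent experiments, and all groups share the cell line, the transfection reagent and the medium. The comparisons ask how transcript levels differ when Srrm2, a nuclear speckle protein of the splicing machinery, is reduced.

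Library totals ranged from 73933196 to 153343831 estimated counts. Srrm2 measured 911, 496 and 449 CPM in Gl2-KD and 517, 154 and 200 CPM in Srrm2-KD at 24 h, in experiments 1, 2 and 3. At 72 h it measured 962, 479 and 442 CPM in Gl2-KD and 461, 182 and 217 CPM in Srrm2-KD. Srrm2 was lower after its siRNA in every experiment, but the groups overlapped because all libraries of experiment 1 held more of it. The log2 differences were -1.22 (SE 0.14) at 24 h and -1.16 (SE 0.14) at 72 h, with edgeR adjusted p of 0.0663 and 0.0991, DESeq2 adjusted p of 3.37e-11 and 1.76e-09, and limma-voom adjusted p of 0.0277 and 0.0218. The 10 mESC markers summed to 4700 to 5690 CPM in every library and primitive endoderm markers to 2.28 to 4.93 CPM. The 8 markers of formative or primed epiblast summed to 599, 727 and 748 CPM in Gl2-KD and 642, 754 and 1100 CPM in Srrm2-KD at 24 h, and to 585, 621 and 449 CPM and 745, 941 and 748 CPM at 72 h, higher in Srrm2-KD in every experiment at both times. The 6 trophectoderm markers summed to 58.5 to 78.2 CPM at 24 h, and at 72 h to 89.4 to 100 CPM in Gl2-KD and 52.0 to 75.6 CPM in Srrm2-KD, most of it Tfap2c, while Cdx2 and Hand1 were at 0 in 2 and 1 libraries. Fibroblast markers summed to 3.89 to 7.72 CPM in experiment 1, 10.1 to 12.1 CPM in experiment 2 and 16.9 to 24.8 CPM in experiment 3. Most of this sum was Thy1 (3.58 to 22.9 CPM), while Col1a1 reached at most 1.21 CPM, and Lum, Postn and Dcn did not pass the filter. The libraries of experiment 1 stood apart from the other 8 in the genes described here. As these are bulk libraries, fewer cells of a type and less RNA per cell cannot be told apart.

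The respiratory chain sits in the inner mitochondrial membrane. Complex I oxidises NADH and complex II oxidises succinate, complex III passes the electrons to cytochrome c, complex IV gives them to oxygen, and ATP synthase uses the proton gradient built on the way to make ATP. Complexes I, III and IV and ATP synthase combine subunits of both genomes, while complex II is encoded by the nucleus alone. The mitochondrial genome is transcribed as long polycistronic RNAs from which tRNAs are cut out, leaving the mRNAs that receive short polyA tails. In pluripotent stem cells much ATP comes from glycolysis, and naive cells of the mouse also respire.

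By the rule used here, 9 of the members have a copy elsewhere in the genome with near-identical sequence. The estimated counts of each such pair depend on how the reads were divided. Stretches of 31 bases (31-mers) were compared, and a copy is a listed gene that shares at least 10% of the member's 31-mers and holds at least 1% of its counts. The 31-mers were those of all transcripts of a member, so the rule can miss a copy of 1 transcript. Atp5l, left out by it, shared 4.324% with Gm10221, which held 33713.4 counts against 213569.5 for Atp5l. mt-Co1, mt-Co2, mt-Atp6, mt-Co3 and mt-Nd3 match 5 unprocessed pseudogenes (Gm29216, Gm28661, Gm10925, Gm28437 and Gm28438) that lie side by side at chr1:24612775-24616197 on the minus strand of GRCm38. Their alignments held 0 mismatches, except for mt-Nd3 with 1 mismatch in 345 bases. The first 60 bases of mt-Nd3 (chrM:9459-9518, plus strand) and the matching stretch of Gm28438 (chr1:24613060-24613119, minus strand) are shown because they hold the only mismatch of the aligned stretch, beside which mt-Nd3 is 3 bases longer than its copy (348 against 345). The capital marks the mismatch, T3C counted from the 5′ end of the mt-Nd3 transcript:
mt-Nd3: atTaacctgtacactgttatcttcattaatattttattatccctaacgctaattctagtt
Gm28438: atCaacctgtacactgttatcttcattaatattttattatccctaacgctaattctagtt

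Over all 12 libraries, 84.7% of the estimated counts of the mt-Nd3 pair were listed under the copy, as were 83.1% for mt-Co2, 35.1% for mt-Co3, 33.4% for mt-Atp6 and 24.9% for mt-Co1. The division was not the same in each library. Gm29216 held 8.66% to 12.5% of the mt-Co1 pair in experiment 1, 31.2% to 33.4% in experiment 2 and 32.4% to 39.2% in experiment 3. Gm28437 went the other way, with 46.8% to 52.0% of the mt-Co3 pair in experiment 1 and 15.3% to 36.8% in experiments 2 and 3, so that neither pair overlapped between experiment 1 and the others. mt-Nd4 and mt-Nd4l share 62.8% and 98.9% of their 31-mers with Gm28439 and Gm10222 on chromosome 1, both listed at 0 counts in all libraries, and mt-Atp8 and mt-Nd4l overlap mt-Atp6 and mt-Nd4 on the mitochondrial chromosome. Among the nuclear members, the processed pseudogene Gm10175 at chr7:23946646-23947290 matches Atp5g2, a gene of the membrane ring of ATP synthase, without a mismatch over 645 bases, and it held 91.1% to 93.6% of the pair in each library. Ndufb4c matches Ndufb4 without a mismatch and held 76.6% to 81.6%. BC002163 held 57.6% to 65.8% of the Ndufs5 pair and Gm15920 held 51.9% to 58.8% of the Ndufa12 pair, with 2 mismatches each (T328C and A352G in Ndufs5, A225G and T504C in Ndufa12, counted from the 5′ end of the member's transcript). Values of these 9 members are therefore uncertain, and the differences printed for them singly are also given with the counts of member and copy summed, a step chosen after the data were seen.

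**Figure D1:**
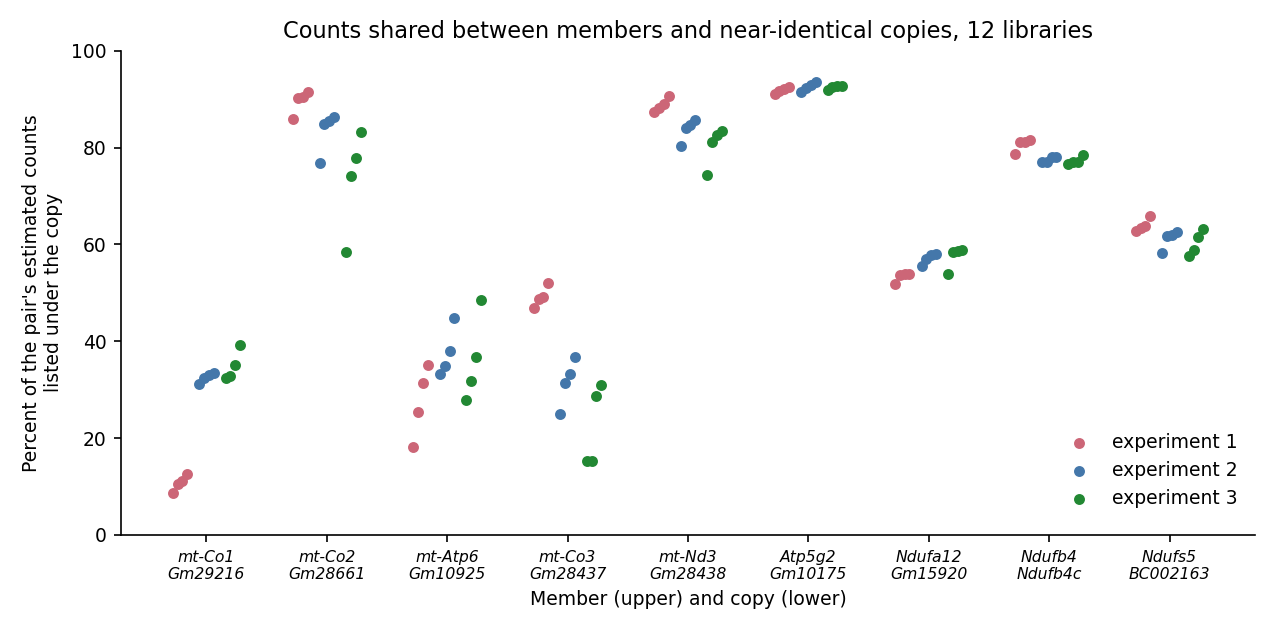
Percent of the estimated counts of each pair that were listed under the copy (y axis), for 9 members (x axis) in the 12 libraries, coloured by experiment. For mt-Co1 the experiment 1 libraries lie at 8.66% to 12.5%, below the other 8, and for mt-Co3 they lie at 46.8% to 52.0%, above the other 8.

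Promoters of the nuclear members were read for the cores of NRF1, ETS and YY1, and their part in any difference between libraries was not tested. RefSeq windows of 250 bases before to 50 bases after the start (GRCm38.p6) matched 55 of the 66 nuclear members. Of the 55, 8 (14.5%) held CGCATGCG, the core that NRF1 recognises, against 2.07% of all 27025 genes with such a window. The ETS core CCGGAAG was in 13 (23.6%, against 9.93%) and the YY1 core AAGATGGCG in 7 (12.7%, against 1.64%). The 27025 genes were not limited to those expressed here. Both strands were searched, and CCGGAAG can overlap AAGATGGCG by 3 bases. The window of Atp5j (chr16:84834927-84835226, minus strand), which encodes a peripheral stalk subunit of ATP synthase, was the only member window with all 3 cores. That of Uqcr11 (chr10:80406772-80407071, minus strand), a small subunit of complex III, is shown beside it for its NRF1 and ETS cores. Capitals mark the cores, a match of letters and not a measured site:
Atp5j: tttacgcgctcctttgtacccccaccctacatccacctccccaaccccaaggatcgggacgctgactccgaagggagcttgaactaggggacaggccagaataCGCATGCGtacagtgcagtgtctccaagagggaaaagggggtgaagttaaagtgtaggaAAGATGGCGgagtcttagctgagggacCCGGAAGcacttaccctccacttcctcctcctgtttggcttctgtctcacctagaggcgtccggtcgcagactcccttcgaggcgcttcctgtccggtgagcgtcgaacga
Uqcr11: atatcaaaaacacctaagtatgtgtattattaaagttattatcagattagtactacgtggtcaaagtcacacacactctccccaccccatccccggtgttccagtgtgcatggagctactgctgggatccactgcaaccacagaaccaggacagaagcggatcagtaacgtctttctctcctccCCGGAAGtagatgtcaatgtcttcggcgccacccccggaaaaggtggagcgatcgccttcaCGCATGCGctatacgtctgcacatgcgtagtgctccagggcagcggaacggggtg

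The 13 mt members together took more of each library than the 66 nuclear members. At 24 h they held 3.80%, 2.69% and 2.32% of the estimated counts in Gl2-KD (2.94% ± 0.77, SD, n = 3) and 4.01%, 3.12% and 2.81% in Srrm2-KD (3.31% ± 0.623, SD, n = 3), in experiments 1, 2 and 3. At 72 h they held 3.91%, 2.88% and 2.80% in Gl2-KD (3.20% ± 0.619, SD, n = 3) and 4.17%, 3.36% and 3.21% in Srrm2-KD (3.58% ± 0.516, SD, n = 3). The share was higher in Srrm2-KD than in Gl2-KD of the same experiment at both times, yet the groups overlapped, since the 4 libraries of experiment 1 were the highest of all 12. Adding the 5 chromosome 1 copies, which held 0.984% to 1.60%, raised the median share from 3.17% to 4.53%. The nuclear members held 0.827% to 0.891% in experiment 1, 1.12% to 1.27% in experiment 2 and 1.18% to 1.27% in experiment 3. The ratio of mt to nuclear counts was 4.39 to 4.69 in the libraries of experiment 1 and 1.92 to 2.74 in the other 8.

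**Figure D2:**
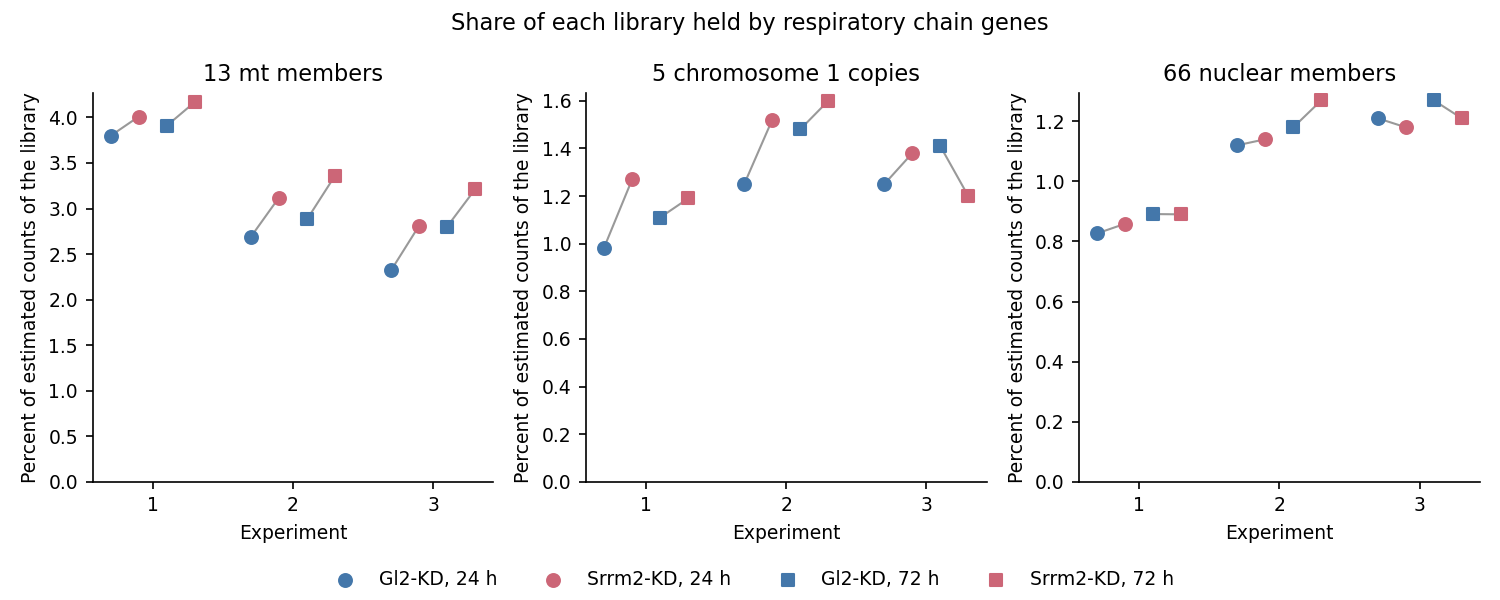
Share of each library's estimated counts (percent, y axis) held by the 13 mt members, the 5 chromosome 1 copies and the 66 nuclear members, by experiment (x axis), with Gl2-KD in blue, Srrm2-KD in red, 24 h as circles, 72 h as squares, and a grey line between the 2 siRNAs of the same experiment and time. In the first panel every red point lies above the blue point it is joined to, and experiment 1 lies highest, while in the panel of nuclear members experiment 1 lies lowest at 0.827% to 0.891%.

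Per kilobase of annotated exon, mean levels over the 12 libraries ran from 170 CPM (mt-Nd6, the only mt member on the opposite strand) to 7550 CPM (mt-Co1) among the mt members, with a median of 1740 CPM. mt-Co3 (5010 CPM), mt-Atp6 (4120), mt-Nd1 (3400), mt-Cytb (2970) and mt-Atp8 (2860) came next. The levels of neighbours in this order overlapped between libraries, for example 3130 to 5530 CPM for mt-Atp6 and 2310 to 4210 CPM for mt-Nd1. mt-Nd3, at 191 CPM, and mt-Co2, at 1740 CPM, are members whose copies held most of the counts. The order, and the median, which is the value of mt-Co2, therefore depend on how the reads were divided, and levels with the copies summed are not given.

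The nuclear members had a median of 96.8 CPM per kilobase. ATP synthase led with Atp5b (1010 CPM) and Atp5a1 (528), the beta and alpha subunits of its catalytic F1 part, and Atp5g3 (376), a c-ring gene, and its 17 members had a median of 195 CPM. Complex III followed with a median of 183 CPM, from 61.6 (Uqcrq) to 309 (Uqcrh), then complex II with 106, from 35.7 (Sdhc, a membrane anchor) to 139 (Sdhb, the iron-sulphur subunit), and complex I with 70.7, from 3.08 (Ndufs8) to 285 (Ndufa7). The ranges of the complexes overlapped widely. Ndufs8, a core iron-sulphur subunit that complex I cannot do without, measured only 2.04 to 5.81 CPM in the 12 libraries, and Ndufa4, a ubiquitous subunit of complex IV, 0 to 0.356 CPM from 0 to 54.8 estimated counts. Both are so far below their partners that their listed values are uncertain, and no source used here says how the transcripts of a gene were summed. Ndufa4l2, the paralogue of Ndufa4, measured 1.4 to 15.1 CPM.

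**Figure D3:**
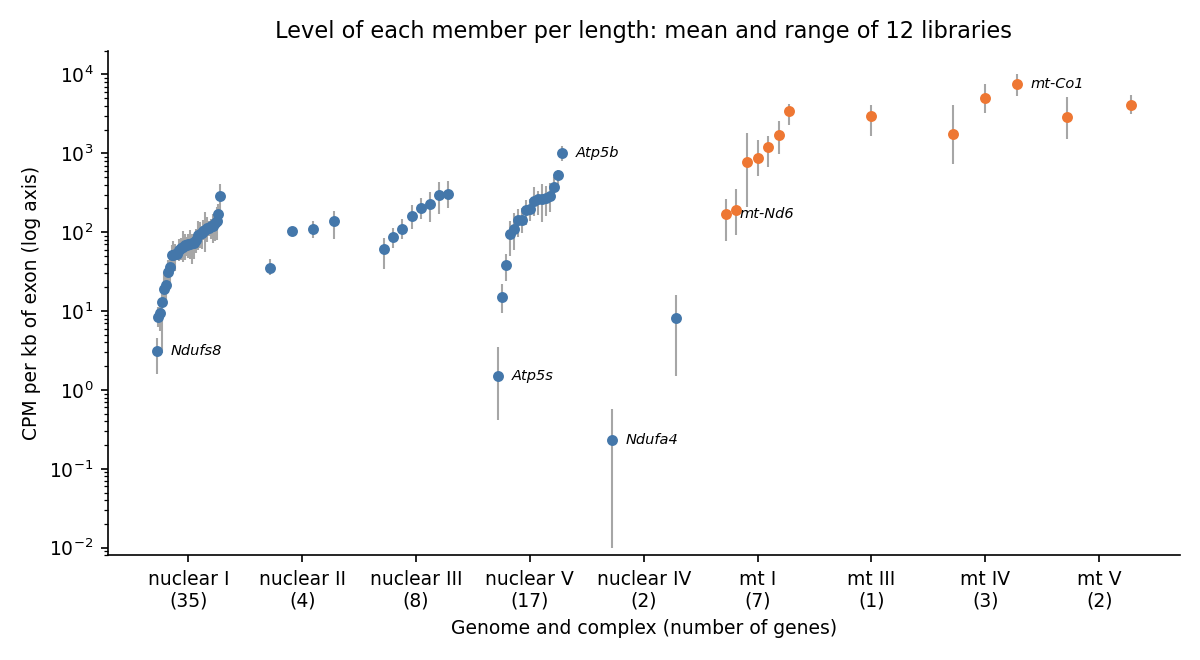
Mean CPM per kilobase of exon (log axis) of each member over the 12 libraries, with bars from the lowest to the highest library, grouped by genome and complex. The mt members (orange) lie between 170 and 7550 CPM, most nuclear members (blue) around their median of 96.8, and Ndufa4 lies lowest at 0.233, with its library at 0 drawn at 0.01.

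At 24 h, most mt members stood slightly higher in Srrm2-KD than in Gl2-KD. mt-Nd2, a membrane subunit of complex I, measured 1450, 1240 and 766 CPM in Gl2-KD and 1670, 1500 and 1060 CPM in Srrm2-KD. mt-Cytb, the cytochrome b of complex III, measured 3820, 3360 and 2190 CPM in Gl2-KD and 4490, 4010 and 2910 CPM in Srrm2-KD. mt-Nd4 measured 3130, 1860 and 1350 CPM against 3510, 2250 and 1820 CPM. Each was higher in Srrm2-KD within every experiment, and each overlapped between the groups because experiment 1 lay above experiment 3 in both. The log2 differences were 0.32 (SE 0.11, p 0.0140) for mt-Nd2, 0.30 (SE 0.11, p 0.0157) for mt-Cytb, 0.29 (SE 0.10, p 0.0145) for mt-Nd4, 0.28 (SE 0.10, p 0.0163) for mt-Nd1 and 0.27 (SE 0.10, p 0.0221) for mt-Atp8, all unadjusted and with adjusted p of 1.0 in edgeR. The other 8 had unadjusted p above 0.05, with mt-Nd4l at 0.24 (SE 0.23), mt-Nd3 at 0.22 (SE 0.21), mt-Nd5 at 0.18 (SE 0.12), mt-Co3 at 0.18 (SE 0.15), mt-Co1 at 0.15 (SE 0.09), mt-Atp6 at 0.06 (SE 0.09), mt-Nd6 at 0.04 (SE 0.30) and mt-Co2 at -0.01 (SE 0.24). With the copy summed the values were 0.28 (p 0.00367) for mt-Atp6, 0.19 (p 0.0334) for mt-Co2, 0.29 (p 0.0274) for mt-Nd3, 0.20 (p 0.0676) for mt-Co3 and 0.16 (p 0.0873) for mt-Co1, each with an edgeR adjusted p of 1.0.

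None of the 79 members was called at 24 h by edgeR, DESeq2 or limma-voom. Over all genes, edgeR called 0.0%, DESeq2 0.124% and limma-voom 0.0103%. At an unadjusted p below 0.05, 5 of the 13 mt members passed, all with higher values in Srrm2-KD, and 0 of the 66 nuclear members, against 2.62% of all genes in either direction and 1.15% with higher values. Of the mt members, 12 lay above 0, with a median of 0.22 against 0.01 for all genes tested, and their medians within experiments 1, 2 and 3 were 0.125, 0.249 and 0.413. Higher values in Srrm2-KD in all 3 experiments were found for 9 of the 13 mt members and 29 of the 66 nuclear members (69.2% and 43.9%, against 17.3% of all genes). With the copies summed, 13 of 13 mt members lay above 0, their median was 0.267 and 8 had an unadjusted p below 0.05. With per-library offsets for GC content and transcript length, a step added after the data were seen, the median was 0.106 and 0 had such a p. Without experiment 1, whose libraries stood apart, the medians were 0.295 for the mt members, with 6 at such a p, and 0.043 for the nuclear members. Without experiment 2 the mt median was 0.189 with 1 at such a p, and without experiment 3 it was 0.157 with 0. Single libraries also decided this count of 5, which was 0 without the Srrm2-KD library of experiment 2 at 24 h, and 1 without the Gl2-KD or the Srrm2-KD library of experiment 3 at 24 h. The markers of formative or primed epiblast went the same way as the mt members (7 of 8 above 0, median 0.26, 0 at an unadjusted p below 0.05), and their part in the result was not tested.

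The nuclear members at 24 h were spread narrowly around a median of 0.08, from -0.36 (Ndufa4l2) to 0.29 (Atp5s), with 53 of 66 above 0. Complex I had a median of 0.09 (30 of 35 above 0), complex III of 0.07 (7 of 8), ATP synthase of 0.06 (13 of 17) and complex II of 0.03 (2 of 4). Among those that were higher in all 3 experiments, the smallest p belonged to Ndufb3 (0.17, SE 0.11, p 0.147), Ndufs4 (0.17, SE 0.11, p 0.149) and Atp5g2 (0.19, SE 0.13, p 0.167, and 0.11 with Gm10175 summed), the first pair being accessory subunits of complex I. Of the core subunits of complex I, Ndufv1 and Ndufv2, which take the electrons of NADH, were at 0.11 (SE 0.08) and 0.09 (SE 0.12), Ndufs1 at -0.05 (SE 0.10) and Ndufs7 at 0.06 (SE 0.10). Sdha, the flavoprotein of complex II, was at -0.02 (SE 0.08), Uqcrfs1, the Rieske protein of complex III, at 0.08 (SE 0.10), Uqcrc1 and Uqcrc2, its core proteins, at -0.01 (SE 0.09) and 0.07 (SE 0.12), and Atp5a1 and Atp5b at 0.04 (SE 0.09) and -0.09 (SE 0.08). The median of the nuclear members was 0.029 with the GC and length offsets. Cytosolic ribosomal protein genes, a list of 80 also short genes, had the same median of 0.08.

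**Figure D4:**
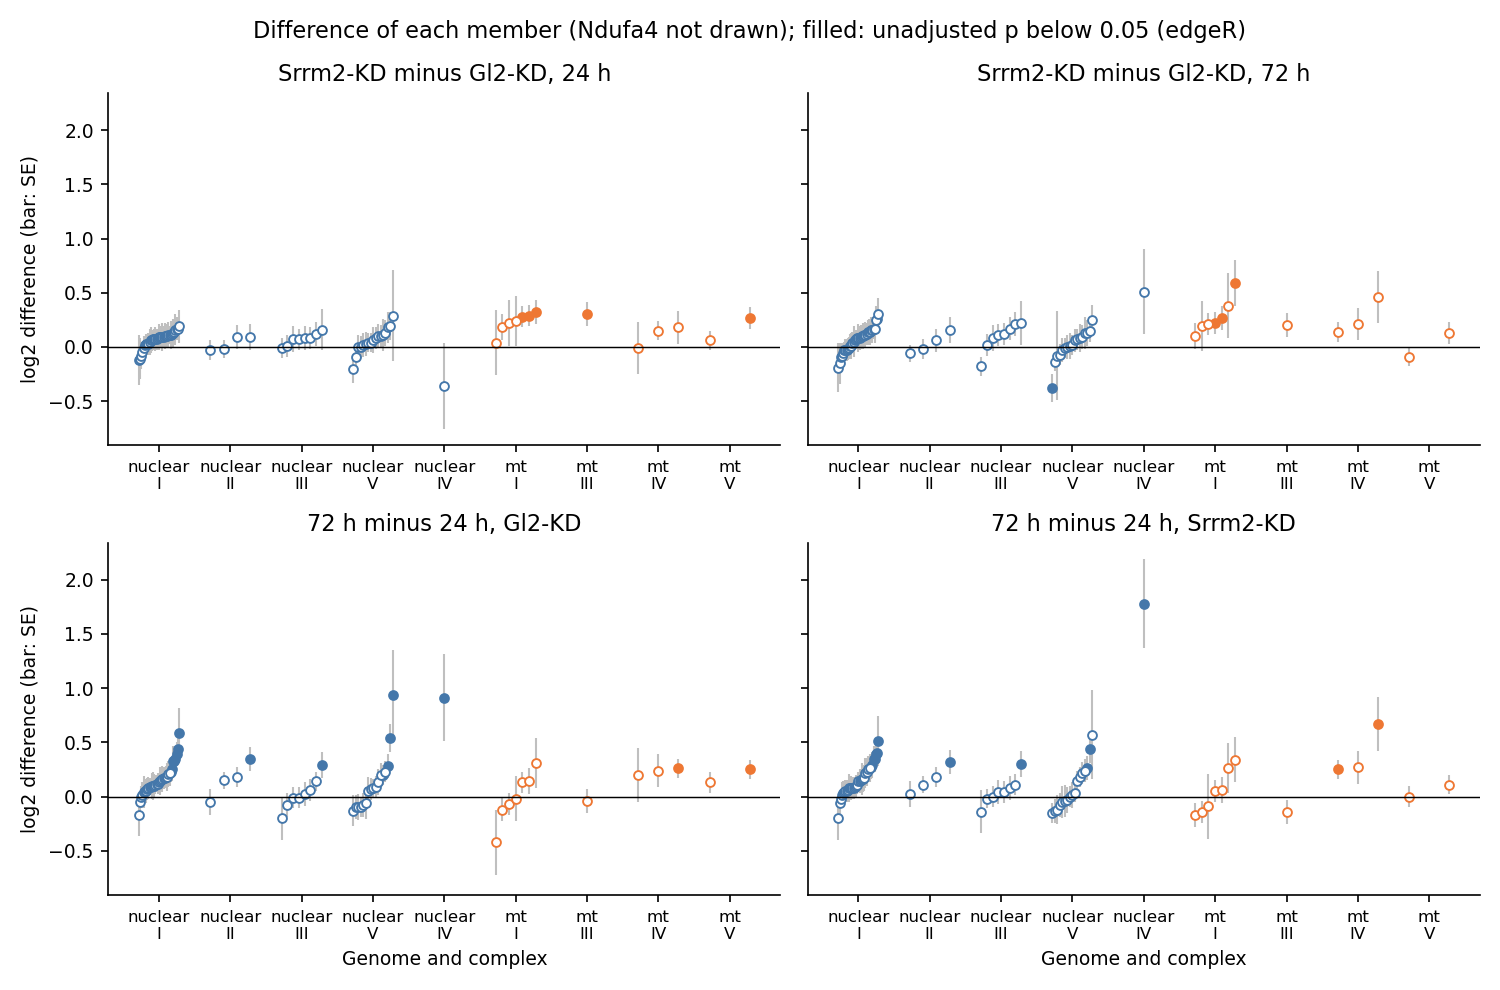
Log2 difference (y axis) of each member with its standard error in 4 comparisons (Srrm2-KD minus Gl2-KD at 24 h and 72 h, and 72 h minus 24 h in each siRNA), grouped by genome and complex, where filled points have an unadjusted p below 0.05 in edgeR and Ndufa4 is not drawn. The filled points are 5 mt members at 24 h, 3 mt and 2 nuclear members at 72 h, and 15 and 13 nuclear and 2 and 2 mt members in the comparisons of time, and none of these members was called after adjustment.

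At 72 h the picture for the mt members was similar, and the nuclear members depended on experiment 2. mt-Nd2 measured 1560, 979 and 698 CPM in Gl2-KD and 1740, 1210 and 892 CPM in Srrm2-KD, a log2 difference of 0.27 (SE 0.11, p 0.0311, edgeR adjusted p 0.338). mt-Nd1 measured 3510, 3030 and 2210 CPM and 3600, 3740 and 2780 CPM, a difference of 0.22 (SE 0.10, p 0.0496, edgeR adjusted p 0.387). mt-Nd3 measured 37.7, 68.1 and 57.8 CPM and 36.4, 121 and 110 CPM, a difference of 0.59 (SE 0.21, p 0.0188, edgeR adjusted p 0.292). The first pair was higher in Srrm2-KD in every experiment, mt-Nd3 only in experiments 2 and 3, and all 3 overlapped between the groups. With Gm28438 summed, the difference of mt-Nd3 was 0.27 (p 0.0385, edgeR adjusted p 0.357). mt-Co2, at 0.46 (SE 0.24, p 0.0844, edgeR adjusted p 0.468), went to -0.02 with its copy, and mt-Atp6, the only mt member below 0 at -0.09 (SE 0.09), went to 0.16. The remaining mt members lay between 0.10 (mt-Nd5) and 0.38 (mt-Nd6).

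None of the 79 members was called at 72 h by edgeR, DESeq2 or limma-voom, which called 0.0%, 2.76% and 0.0206% of all genes. Unadjusted p below 0.05 were found for 3 of 13 mt members and 2 of 66 nuclear members, against 12.9% of all genes. Of these, the 3 mt members and 1 nuclear member had higher values, and 5.01% of all genes tested had both such a p and higher values. The mt median was 0.21 (12 of 13 above 0, with 0.079, 0.251 and 0.327 in the 3 experiments), and the median of all genes was -0.02. Of the mt members, 8 (61.5%) were higher in all 3 experiments, and of the nuclear members 9 (13.6%), against 18.8% of all genes. Without experiment 1 the mt median was 0.267, with 6 of 13 at an unadjusted p below 0.05. Without experiment 2 it was 0.174 with 0 at such a p, and without experiment 3 it was 0.164 with 1. The count of 3 was 0 without the Gl2-KD library of experiment 2 at 72 h, and 1 without the Srrm2-KD library of experiment 2 at 24 h or at 72 h, or that of experiment 3 at 72 h. With the GC and length offsets it was 1. The markers of formative or primed epiblast had a median of 0.52 (7 of 8 above 0, with 4 at an unadjusted p below 0.05 and 0 called), and their part in the result was not tested.

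Atp5d, the delta subunit of the F1 part, had the smallest p of the nuclear members at 72 h. It measured 106, 183 and 246 CPM in Gl2-KD and 85.2, 146 and 177 CPM in Srrm2-KD, a log2 difference of -0.38 (SE 0.13, p 0.0132, edgeR adjusted p 0.275). Ndufs4 measured 15.7, 21.3 and 20.9 CPM in Gl2-KD and 17.3, 28.2 and 24.3 CPM in Srrm2-KD, a difference of 0.26 (SE 0.11, p 0.0354, edgeR adjusted p 0.350). Ndufs5 measured 10.2, 16.6 and 19.3 CPM and 11, 26.7 and 20.4 CPM, a difference of 0.30 (SE 0.15, p 0.0673, edgeR adjusted p 0.431), or 0.26 (p 0.0535, edgeR adjusted p 0.399) with BC002163 summed. Atp5d was lower and Ndufs4 and Ndufs5 higher in each experiment, and the groups overlapped for all 3. At 24 h Atp5d had measured 107, 191 and 212 CPM in Gl2-KD and 116, 150 and 158 CPM in Srrm2-KD, a difference of -0.20 (SE 0.13, p 0.139, edgeR adjusted p 1.0).

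The nuclear median at 72 h was 0.08 with 45 of 66 above 0, and the medians within experiments 1, 2 and 3 were -0.024, 0.272 and -0.075. Without the Srrm2-KD library of experiment 2 at 72 h it was -0.055 with 17 of 66 above 0, and without that of experiment 3 it was 0.132 with 7 higher and 1 lower at an unadjusted p below 0.05. In the same experiments, cytosolic ribosomal protein genes had medians of -0.022, 0.312 and -0.043, and other protein-coding genes with a longest transcript of up to 1000 bases had 0.221 in experiment 2, so that the nuclear members moved with other short genes there. What part this had in the result was not tested. By complex the medians were 0.08 for complex I, 0.02 for complex II, 0.12 for complex III and 0.02 for ATP synthase. Core subunits ranged from Uqcrc1 at -0.18 (SE 0.09, p 0.0854, edgeR adjusted p 0.469) and Atp5b at -0.14 (SE 0.08) to Ndufv2 at 0.16 (SE 0.12). Ndufs1 was at -0.01, Ndufs7 at -0.03, Ndufs8 at -0.15, Ndufv1 at 0.08, Sdha at -0.06, Sdhb at 0.06, Sdhc at -0.02, Sdhd at 0.16, Uqcrc2 at 0.08, Uqcrfs1 at 0.12 and Atp5a1 at 0.02.

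The difference between the knockdown effects at 72 h and at 24 h was tested as an interaction. None of the members was called, by any of the 3 tools, and none had an unadjusted p below 0.05 in edgeR. Over all genes 1.64% had such a p, and the calls made up 0.0% with edgeR, 0.0103% with DESeq2 and 0.0% with limma-voom. The nuclear median was 0.00 with 33 members on each side, and the mt median was -0.05. The sign of the nuclear median turned with single libraries, from -0.116 with 4 of 66 above 0 without the Srrm2-KD library of experiment 2 at 72 h to 0.061 with 48 above 0 without that of experiment 3 at 72 h. The smallest p among nuclear members with the same sign in all experiments was that of Uqcrc1, which went from -0.01 at 24 h to -0.18 at 72 h, a difference of -0.17 (SE 0.13, p 0.226), followed by Ndufb10 at -0.11 (SE 0.12, p 0.371) and Ndufb9 at 0.08 (SE 0.13, p 0.571).

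Between 24 h and 72 h several nuclear members of complex I and ATP synthase had higher values at the later time in both siRNAs, without passing the adjusted test. Atp5g2 measured 15.9, 18.4 and 24.2 CPM at 24 h and 22.0, 31.1 and 32.4 CPM at 72 h in Gl2-KD, a log2 difference of 0.54 (SE 0.13, p 0.00149, edgeR adjusted p 0.0642). Ndufa6, an accessory subunit of complex I, measured 53.9, 75.7 and 107 CPM and 69.5, 111 and 142 CPM, a difference of 0.44 (SE 0.12, p 0.00354, edgeR adjusted p 0.0940). Ndufa7 measured 92.6, 126 and 164 CPM and 117, 170 and 214 CPM, a difference of 0.39 (SE 0.11, p 0.00540, edgeR adjusted p 0.115). All 3 were higher at 72 h in every experiment, with overlap between the times across experiments. DESeq2 called Atp5g2 and Ndufa6 (adjusted p 0.00746 and 0.0279), and edgeR called Atp5g2 when the Srrm2-KD library of experiment 2 at 72 h was left out (adjusted p 0.0444). With Gm10175 summed, the difference of Atp5g2 was 0.33 (p 0.00925, edgeR adjusted p 0.141).

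In Gl2-KD none of the 79 members was called by edgeR or limma-voom and 2 by DESeq2, against 1.45%, 2.48% and 6.69% of all genes. Unadjusted p below 0.05 were found for 15 of the 66 nuclear members (8 of complex I, 1 of complex II, 1 of complex III, 4 of ATP synthase and Ndufa4l2) and for 2 of the 13 mt members, against 16.8% of all genes. All 17 had higher values at 72 h. Over all genes, 3260 had such a p, and 1861 of them (9.59% of all genes tested) had higher values. The nuclear count of 15 depended on single libraries. It was 6 without the Gl2-KD library of experiment 2 at 24 h, 7 without that of experiment 1 at 24 h or at 72 h, and 8 higher and 1 lower without that of experiment 3 at 72 h. Without experiments 1 and 2 it was 6 and 4, and the mt count of 2 was 0 without experiment 3. The nuclear median was 0.11 (51 of 66 above 0, with 0.154, 0.106 and 0.096 in the 3 experiments) and that of all genes 0.02, and 34 nuclear members (51.5%) were higher in all 3 experiments, against 20.2% of all genes. Named after their values were seen, Sdhb (0.35, SE 0.11), Atp5c1 (0.28, SE 0.11), Uqcrc2 (0.29, SE 0.12) and Ndufa9 (0.59, SE 0.23) were among the 15. Sdhb measured 93.7, 128 and 192 CPM at 24 h and 129, 177 and 212 CPM at 72 h. Cytosolic ribosomal protein genes had a median of 0.29 in the same comparison, with 58 of 80 at an unadjusted p below 0.05 and 0 called, and mitochondrial ribosomal protein genes one of -0.01. Of the mt members, mt-Co1 (0.26, SE 0.09, p 0.0122, edgeR adjusted p 0.159) and mt-Atp6 (0.25, SE 0.09, p 0.0191, edgeR adjusted p 0.193) had the small p. mt-Co1, the catalytic subunit of complex IV, measured 13400, 8260 and 8820 CPM at 24 h and 14800, 11000 and 10400 CPM at 72 h, higher in each experiment. With the copies summed mt-Co1 was at 0.29 and mt-Atp6 at 0.17. The mt median was 0.13 with 8 of 13 above 0, and 4 (30.8%) were higher in all 3 experiments.

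In Srrm2-KD none of the members was called by edgeR or limma-voom and 3 by DESeq2 (Ndufa4l2, Ndufa7 and Atp5g2, with adjusted p of 0.00014, 0.0358 and 0.041), against 0.551%, 1.33% and 5.43% of all genes. Unadjusted p below 0.05 were found for 13 nuclear members and 2 mt members, against 16.3% of all genes, and all 15 had higher values at 72 h. Over all genes, 3156 had such a p, and 1499 of them (7.72% of all genes tested) had higher values. The nuclear count of 13 was 3 without the Srrm2-KD library of experiment 2 at 72 h, 4 without that of experiment 2 at 24 h, 8 without that of experiment 1 at 24 h, and 1 without experiment 2. The mt count of 2 was 0 without the Srrm2-KD library of experiment 2 at 72 h, and 4 higher and 3 lower without experiment 1. Ndufa4l2 measured 5.11, 1.4 and 5.58 CPM at 24 h and 8.81, 12.8 and 15.1 CPM at 72 h, a log2 difference of 1.78 (SE 0.41, p 0.00122, edgeR adjusted p 0.0879). Every library of 72 h lay above every library of 24 h for this low gene, whose difference was 0.78, 3.18 and 1.44 within the 3 experiments. In Gl2-KD it measured 5.23, 2.17 and 8.23 CPM at 24 h and 9.3, 8.02 and 8.62 CPM at 72 h, a difference of 0.91 (SE 0.40, p 0.0441, edgeR adjusted p 0.282), with overlap. Ndufa7 was at 0.39 (SE 0.11) and Atp5g2 at 0.44 (SE 0.13), or 0.40 with Gm10175 summed. The nuclear median was 0.10 (51 of 66 above 0, with 0.043, 0.261 and 0.056 in the 3 experiments), and it was -0.006 without experiment 2. Of the nuclear members, 22 (33.3%) were higher in all 3 experiments, against 16.2% of all genes, and of the mt members 3 (23.1%). mt-Co2 had a difference of 0.67 (SE 0.25, p 0.0189, edgeR adjusted p 0.212), which was 0.03 with its copy summed, and mt-Co1 had 0.25 (SE 0.09, p 0.0160, edgeR adjusted p 0.200), or 0.24 with its copy. In both comparisons, time after transfection, any difference in days in the serum-free medium and the second transfection cannot be told apart.

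The experiment was the factor along which members differed by most. The block for the 3 experiments was tested as a whole, and its direction is given as experiment 1 minus the mean of experiments 2 and 3. Of the nuclear members 62 of 66 were called, all of them lower in experiment 1, and of the mt members 13 of 13, with 9 higher and 4 lower in experiment 1. The mt result depended on the processing: with the copies summed the mt median was 0.20 with 11 called, and with the GC and length offsets it was -0.056 with 11 called, 6 of 13 above 0, and 4 higher and 7 lower at an unadjusted p below 0.05. Over all genes 58.5% were called and 64.0% had an unadjusted p below 0.05. The nuclear median was -0.72, the mt median 0.51 and the median of all genes 0.01. When the libraries were scaled by their totals alone these became -0.608, 0.615 and 0.119.

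Atp5e, the epsilon subunit of F1, measured 56.3 to 63.9 CPM in the 4 libraries of experiment 1 and 118 to 171 CPM in the other 8, a log2 difference of -1.17 (edgeR adjusted p 5.03e-06). Ndufb10 measured 48.1 to 56.4 CPM against 84.5 to 93.7 CPM, a difference of -0.78 (edgeR adjusted p 1.49e-05). Uqcrq measured 63.1 to 73.5 CPM against 118 to 157 CPM, a difference of -0.95 (edgeR adjusted p 1.61e-05). No library of experiment 1 reached the others for any of the 3. The same separation, all 4 libraries on 1 side of the other 8, was found for 56 of 66 nuclear members (84.8%, all lower) and 8 of 13 mt members (61.5%, 3 lower and 5 higher), against 30.5% of all genes. By complex, all 17 members of ATP synthase (median -0.75), all 8 of complex III (-0.64), 34 of 35 of complex I (-0.73) and 3 of 4 of complex II (-0.38) were called. The exceptions were Sdha (271 to 327 CPM over all libraries, 0.04) and Ndufs1 (141 to 176 CPM, 0.02), with Ndufa4 and Ndufa4l2 at low counts. Ndufa9, named after its values were seen, lay farthest at -1.67, with 4.49 to 12.5 CPM in experiment 1 and 17.6 to 31.3 CPM in the others.

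The mt members went in both directions. mt-Nd4l measured 456 to 535 CPM in experiment 1 and 61.5 to 152 CPM in the others, a difference of 2.32 (edgeR adjusted p 4.76e-06). mt-Atp8 (1.17), mt-Nd5 (1.12), mt-Nd4 (0.83), mt-Nd2 (0.66), mt-Cytb (0.62), mt-Co1 (0.51), mt-Atp6 (0.33) and mt-Nd1 (0.20) were also higher in experiment 1, and mt-Co2 (-1.27), mt-Nd3 (-1.06), mt-Nd6 (-0.98) and mt-Co3 (-0.73) were lower. With the copies summed, mt-Co1 was at 0.07 (edgeR adjusted p 0.561) and mt-Co3 at -0.22 (edgeR adjusted p 0.051), neither called, mt-Co2 at -0.32, mt-Nd3 at -0.42 and mt-Atp6 at 0.13. Without experiment 1, Atp5s (0.857 to 7.09 CPM over all libraries) was the nuclear member still called between experiments 2 and 3, with mt-Nd1, mt-Nd2, mt-Cytb, mt-Atp8 and mt-Co2.

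Other genes differed between the experiments in the same direction as the nuclear members. All 80 cytosolic ribosomal protein genes were called, with a median of -0.88, as were 73 of 77 mitochondrial ribosomal protein genes (-0.61) and 11 of 11 nuclear Cox genes (-0.72). Other protein-coding genes with a longest transcript of up to 1000 bases had a median of -0.70 (597 of 860 called), and those over 4000 bases one of 0.46 (3596 of 5165 called). The nuclear members are short, with a median longest transcript of 963 bases and 51.4% GC, against 3053 bases and 50.4% for all protein-coding genes tested. The exceptions Sdha and Ndufs1 have 2900 and 2661 bases. Other long members were lower in experiment 1, namely Atp5g1 (4715 bases, -0.75), Ndufb2 (4371 bases, -0.86), Sdhc (3171 bases, -0.39) and Atp5a1 (2674 bases, -0.44). With the GC and length offsets the nuclear median was -0.450 with 53 members called. No source used here gives the RNA processing day of a library, and the part of length, RNA quality or day in the difference was not tested.

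**Figure D5:**
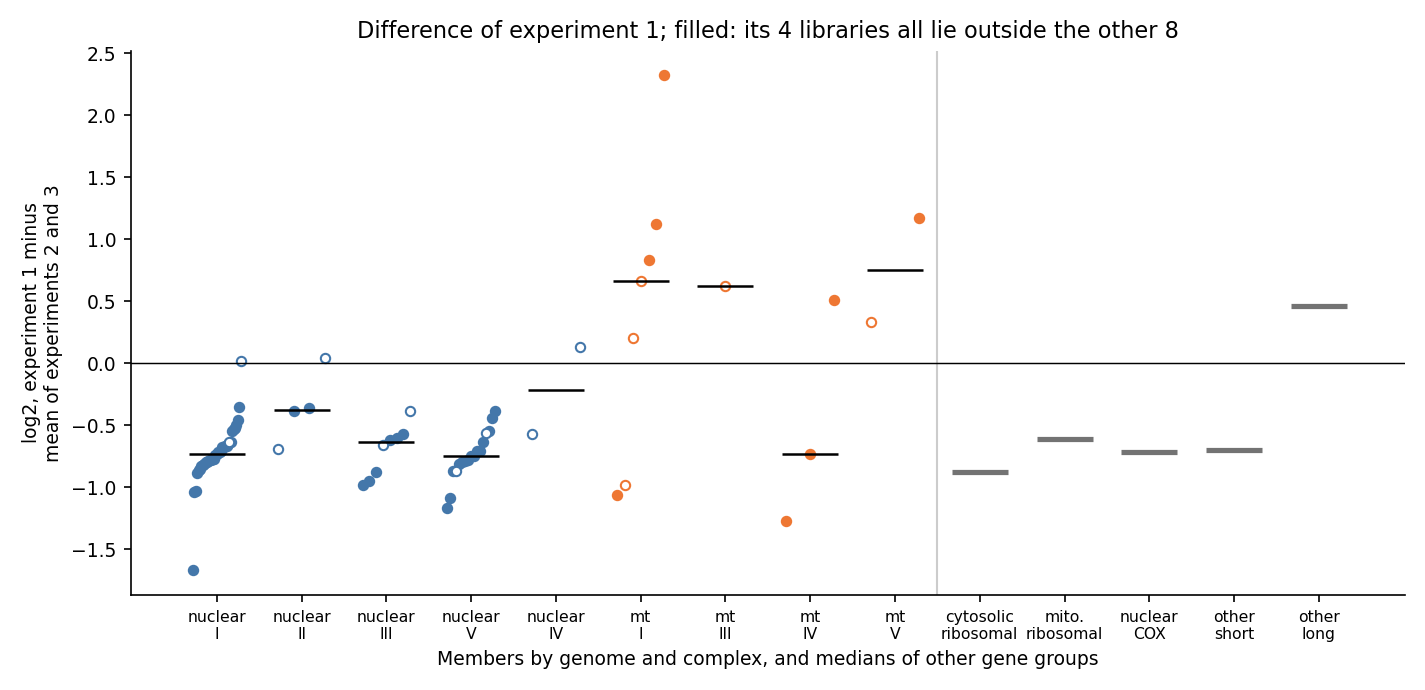
Log2 difference of experiment 1 from the mean of experiments 2 and 3 (y axis) for each member, grouped by genome and complex, with black lines at group medians, grey lines at the medians of other gene groups, and filled points where the 4 libraries of experiment 1 all lie outside the other 8. The 17 ATP synthase members all lie below 0 with a median of -0.75, Sdha and Ndufs1 lie at 0.04 and 0.02, and the mt members spread from -1.27 to 2.32.

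Genes that serve the respiratory chain without being members were taken as lists chosen with earlier results of these data known. Of 16 complex I assembly factors, 4 of complex II, 6 of complex III and 4 of ATP synthase, 15 genes of cytochrome c and ubiquinone synthesis, 11 nuclear Cox genes, 17 of mitochondrial DNA replication and transcription, 18 of mitochondrial RNA processing and 10 regulators, none was called between Srrm2-KD and Gl2-KD at 24 h or 72 h by edgeR, DESeq2 or limma-voom. Of these 101 genes, 1 had an unadjusted p below 0.05 at 24 h by each tool, and at 72 h 8 had one by edgeR, 13 by DESeq2 and 9 by limma-voom. Over all genes edgeR gave such a p to 2.62% and 12.9%, so that by edgeR the lists did not exceed the background. By edgeR, the list gene at 24 h was Coq10a, a ubiquinone-binding protein, at 2.32 (p 0.00381, edgeR adjusted p 1.0). At 72 h, 5 of the 8 had higher and 3 lower values in Srrm2-KD. In the comparisons of time, Myc was the only list gene called, and it fell by 1.73 on the log2 scale from 24 h to 72 h in Gl2-KD (edgeR adjusted p 0.0144), with a value of -1.18 in Srrm2-KD (edgeR adjusted p 0.0646). Between experiments, 14 of the 16 complex I assembly factors were called (median -0.51, 13 of them lower in experiment 1) and 6 of the 10 regulators (median 0.40, the 6 higher), against 58.5% of all genes, which is about the share of the regulators.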

How the data were processed

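The measurements are polyA+ RNA-seq of 12 mESC libraries, 3 for each of 4 groups, prepared with a stranded kit and sequenced as 100-bp paired-end reads. The authors pseudo-aligned the reads to the mouse transcriptome of GENCODE M24 with Kallisto 0.46.1 and deposited estimated counts, 1 value per gene and library, with no normalisation. The label build is mm10. Gene symbols, exons and positions were taken from GENCODE M21 (GRCm38), in which 294 identifiers, with 0.175% of the counts, had no match. Library totals of 73933196 to 153343831 are the depth behind all values. The SE and p of edgeR come from its fit, and hold counting error together with the spread left after the group and experiment terms. Values given with ± are SD over the libraries of a group.

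Members, lists and comparisons were chosen with earlier results of these data known. Estimated counts were rounded and fitted in R 4.3.3 with edgeR 4.0.16 (filterByExpr with minimum count 10 and minimum total 15, TMM, glmQLFit with legacy=TRUE, glmQLFTest). The fit had a term per group and the experiment number as a block, which is the pairing used throughout, and p-values were adjusted over all genes tested. edgeR's estimate of the common biological variation (BCV) was 0.22, on 6 residual and 5.09 prior degrees of freedom. The study itself used edgeR 3.38.4 with a term for the RNA processing day. It reported Srrm2 as changed at both times and further genes at 72 h, where the main edgeR fit here called none. The labels number the independent experiments, and after removal of group means the 18 library pairs with the same number correlated across genes at 0.281 to 0.747 and the 36 others at -0.628 to 0.231, so that the numbers pair the libraries. Genes are not independent replicates in these correlations.

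Members were described by counts and medians, without a test over the list, since they share libraries. Genes named are the mt members, the core subunits, the c-subunit genes, Ndufa4 and Ndufa4l2, Srrm2, and for each comparison the 3 nuclear members with the smallest p and the same direction in all 3 experiments (for the experiments, the 3 smallest p). Other genes were named after their values were seen. Not every gene covered by this rule is reported here. Levels of different genes were compared per kilobase of the exon union. Copies were found from shared 31-mers of GENCODE transcripts. Alternatives were DESeq2 1.42.0, limma-voom (limma 3.58.1), library totals or RLE factors as scaling, no filter or at least 10 counts in every library, legacy=FALSE, no block, a block for experiment and time together, each time or siRNA alone, the mt genes left out of the scaling, and each library or experiment left out. The steps were also run on simulated counts in which 200 genes were changed in Srrm2-KD at 72 h. The outcome is not reported here and is not used for the differences of the members. Added after the data were seen were copies summed and loess offsets (span 0.3) for GC content and length.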

Additional observations from a re-analysis of the deposited data

How the results depend on the processing

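None of the members was called between Srrm2-KD and Gl2-KD, or in the interaction with time, under any alternative run. In Gl2-KD over time, where edgeR called 0 nuclear members, at least 10 counts in every library gave 1, legacy=FALSE 1, and DESeq2 2, and leaving out libraries or experiments gave 0 to 1 (Atp5g2 without the Srrm2-KD library of experiment 2 at 72 h). In Srrm2-KD over time, no filter on low counts gave 1 and DESeq2 3. Between experiments, leave-outs gave 1 to 63 nuclear and 5 to 13 mt members, the lowest of both without experiment 1, and 60 to 63 and 11 to 13 in the others. With the copies summed 11 mt members were called, with the GC and length offsets 53 nuclear and 11 mt members, and with DESeq2 63 nuclear members.

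The median of the nuclear members at 24 h was 0.029 with GC and length offsets. Over time in Gl2-KD it was 0.075 with library totals only and 0.072 with the offsets, and 0.091 to 0.155 with libraries left out. The mt median there ran from -0.009 (without experiment 3) to 0.203 (without the Gl2-KD library of experiment 1 at 24 h). In the interaction the mt median was 0.004 with the offsets and -0.130 to -0.001 with libraries left out, and Ndufb9 ran from -0.02 (without the Srrm2-KD library of experiment 2 at 72 h) to 0.15. The Srrm2-KD library of experiment 2 also set the sign of the nuclear median at 72 h, with leave-outs at -0.055 to 0.132. Summing the chromosome 1 copies moved the median mt share to 4.53%. The causes of these shifts were not tested. Over all alternatives and comparisons, 310 recomputed counts of members called stayed within 1.5 times the main count (or at 0), 6 were higher and 2 lower, and 258 recomputed medians stayed within the spread between experiments while 11 did not.

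Without the replicate block, 0 members were called in every comparison. The nuclear and mt medians were then 0.067 and 0.196 at 24 h, 0.076 and 0.178 at 72 h, 0.109 and 0.118 over time in Gl2-KD, 0.106 and 0.076 in Srrm2-KD and 0.021 and -0.047 for the interaction. A block for each experiment and time together gave 0.075 and 0.240, 0.070 and 0.209, and -0.009 and -0.053, also with 0 called. At 3 libraries a group, log2 differences near the SE of about 0.10 of most members were not detectable. Much larger ones could be missed too in the main edgeR fit. It called 0.0% of all genes between the siRNAs at both times, and not Srrm2 itself. The lack of calls in that fit therefore says little about the members. Some other settings let edgeR call Srrm2 at 24 h and 72 h. Its edgeR adjusted p was then 0.0367 and 0.0281 under legacy=FALSE, and 0.0278 and 0.0484 when each library needed 10 or more counts. Left unfiltered, the genes gave Srrm2 an adjusted p of 0.00296 and 0.00459. These runs called no member between the siRNAs either. Values of members with copies or with few counts (Ndufa4, Ndufs8) are limited by how reads were assigned.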
